A study of Mus musculus with 14 samples.

Results

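The genes described here are 39 markers of blood vessels, 34 of endothelial cells and 5 of mural cells, taken by symbol from a fixed list out of the 41381 genes measured in mouse granule neuron progenitors (GNPs). The list was given by gene name, but it was chosen with earlier results of these data known. All 39 genes were found once in the table, and all 39 passed the filter on low values, a level of at least 1 TPM in at least 4 libraries, which 17325 genes passed in all. TPM is the abundance of a gene's transcripts per length, scaled to the same total in every library. The lowest member reached 1 TPM in 10 of the 14 libraries, and 23 of the 39 members reached it in every library.

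Total RNA was sequenced from GNPs that were enriched from the cerebella of C57BL/6 mice (C57BL/6N in the study's methods) at postnatal day 7 on a percoll gradient, with the sex of the pups not told apart. All groups carried floxed Chd7. Libraries labelled WT (n = 5) were Chd7 f/f without Cre, libraries labelled Het (n = 5) were Atoh1-Cre::Chd7 f/+, and libraries labelled Hom (n = 4) were Atoh1-Cre::Chd7 f/f. Atoh1-Cre is active in the granule cell lineage, so vessel cells are outside the lineage that it targets, and a density gradient enriches GNPs without removing every other cell. No source used here says that libraries of a group came from separate animals, so p-values measure the spread between libraries, which may be in part technical. By the study's methods, sequencing was done in 2 batches. WT 1 to 3, Het 1 to 3, Hom 1 and Hom 2 formed batch 1 (8 libraries), while WT 4, WT 5, Het 4, Het 5, Hom 3 and Hom 4 formed batch 2 (6 libraries). Every library had between 15863 and 16734 genes at 1 TPM or more, and the summed level of 10 granule lineage genes lay between 3281 and 4924 TPM. The targeted gene, Chd7, had 120.81, 151.68, 132.41, 203.25 and 272.06 TPM in WT 1 to 5, 165.77, 181.3, 150.35, 149.36 and 136.77 TPM in Het 1 to 5, and 172.49, 185.39, 149.87 and 125.63 TPM in Hom 1 to 4. In batch 1 both libraries labelled Hom had more Chd7 transcript than any library labelled WT, which is not the order of the labels. In batch 2 both libraries labelled Hom had less than either library labelled WT, as labelled. Gene-level TPM covers the whole gene and does not show whether the floxed part was lost. The Chd7 level is thus no check of the labels, and directions below rest on the labels alone.

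Blood vessels of the brain are lined by endothelial cells that are joined by tight junctions and carry transporters for nutrients and drugs, the basis of the blood-brain barrier. Endothelial growth depends on vascular endothelial growth factor and angiopoietin receptors, endothelial identity on Ets, Sox and Fox transcription factors, and barrier character on Wnt signals relayed by beta-catenin and Lef1. Mural cells, the pericytes and smooth muscle cells on the outer side of the vessel, are recruited by platelet-derived growth factor from the endothelium and help to build the basement membrane. In a suspension of progenitors, transcripts of these genes can come from vessel fragments that are carried along. In bulk RNA, fewer cells of a type and less RNA per cell cannot be told apart.

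The members were looked up in the RefSeq promoter windows of GRCm38.p6, which run from 250 bases before to 50 bases after a transcript start. Windows were held for 26 of the 39 members. They were searched on both strands for a pair of 7-base motifs bound by Ets factors, CAGGAAG and CCGGAAG, which differ in the second base and do not overlap each other. At least 1 match was found for 8 of the 26 members (30.8%), against 23.1% of the 27025 genes with a window. The 8 genes were the endothelial members Abcg2, Cd34, Egfl7, Emcn, Erg, Itm2a, Lef1 and Robo4, and none of the 4 mural members with a window held a match. The 250 bases before a start are shown for Cldn5, the endothelial member with the highest mean level, for Egfl7, which had 2 matches in 1 of its 3 windows, and for Slco1a4. Slco1a4 was the endothelial member whose mean in WT libraries was lower in batch 2 than in batch 1. The sequences are chr16:18776597-18776846 (plus strand), chr2:26580833-26581082 (plus strand) and chr6:141856221-141856470 (minus strand), printed 5′ to 3′ with matches in capitals.
Cldn5: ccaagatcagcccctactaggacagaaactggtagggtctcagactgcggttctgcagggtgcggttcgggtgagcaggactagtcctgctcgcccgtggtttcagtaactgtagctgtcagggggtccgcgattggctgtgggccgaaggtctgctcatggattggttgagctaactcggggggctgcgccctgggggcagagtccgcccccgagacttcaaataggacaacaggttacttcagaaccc
Egfl7: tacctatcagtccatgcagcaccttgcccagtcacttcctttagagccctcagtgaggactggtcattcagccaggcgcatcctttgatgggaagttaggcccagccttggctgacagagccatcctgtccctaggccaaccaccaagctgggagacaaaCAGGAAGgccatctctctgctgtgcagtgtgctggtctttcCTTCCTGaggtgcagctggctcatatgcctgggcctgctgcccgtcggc
Slco1a4: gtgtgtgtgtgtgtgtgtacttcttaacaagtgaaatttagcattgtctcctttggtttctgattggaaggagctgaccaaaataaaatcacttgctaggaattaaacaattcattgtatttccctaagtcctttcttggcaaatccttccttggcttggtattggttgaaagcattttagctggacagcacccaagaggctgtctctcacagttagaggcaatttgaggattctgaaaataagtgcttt
The matches in the Egfl7 window began at bases 161 and 202, and the windows of Cldn5 and Slco1a4 held none.

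The spread of the vessel markers among libraries labelled Het was wider than the differences between the genotype means, which were 346.9 ± 224.3 TPM in WT (SD, n = 5), 697.4 ± 504.4 TPM in Het (n = 5) and 834.6 ± 345.8 TPM in Hom (n = 4) for the endothelial members together. The 34 endothelial members summed to 171.2, 211.6 and 199.4 TPM in WT 1 to 3, and to 688.5 and 463.7 TPM in WT 4 and 5. The sums were 522.4, 1490 and 139.1 TPM in Het 1 to 3 and 516.1 and 819.5 TPM in Het 4 and 5. In the libraries labelled Hom they were 418.9 and 1209 TPM in batch 1 and 705.0 and 1006 TPM in batch 2. The lowest and the highest sum thus both stood in batch 1 libraries labelled Het, and the 3 WT libraries of batch 1 lay near the lowest. Het 2 was 10.71 times Het 3 in this sum, and WT of batch 2 was 2.969 times WT of batch 1. The endothelial members held between 0.0139% and 0.149% of the TPM total.

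**Figure D1:**
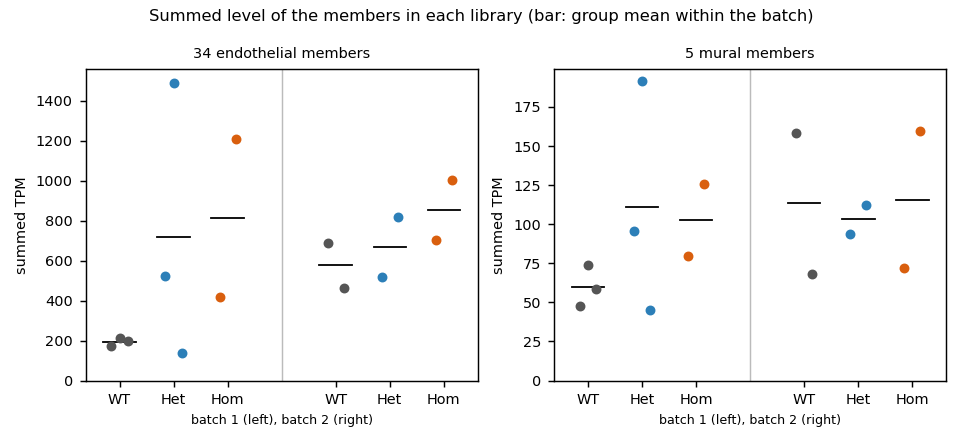
Summed TPM of the 34 endothelial members (left) and the 5 mural members (right) in each of the 14 libraries, by genotype label and batch, with a bar at the mean of each group within its batch. Het 2 is the highest point (1490 and 191.7 TPM) and Het 3 the lowest (139.1 and 44.82 TPM) in both panels, and the WT points of batch 1 lie close together below those of WT 4.

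The same libraries were high and low for nearly every endothelial member. Het 2 had the highest level of all 14 libraries for 30 of the 34 endothelial members, and Het 3 the lowest for 24. Het 3 was below both other batch 1 libraries labelled Het for 34 of 34, and at or below the highest batch 1 WT library for 31. For 33 endothelial members above 0 in Het 3, the level in Het 2 over that in Het 3 ranged from 1.941 (Sox18) to 79 (Sox17), with a median of 16.11. The remaining member, Ly6c1, was listed at 0 in Het 3 and had 28.59 TPM in Het 2. In 31 of the 34 endothelial members, every WT library of batch 1 was below every WT library of batch 2, with a median ratio of batch means of 4.106. Of all genes tested, 26.4% were separated in this way.

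**Figure D2:**
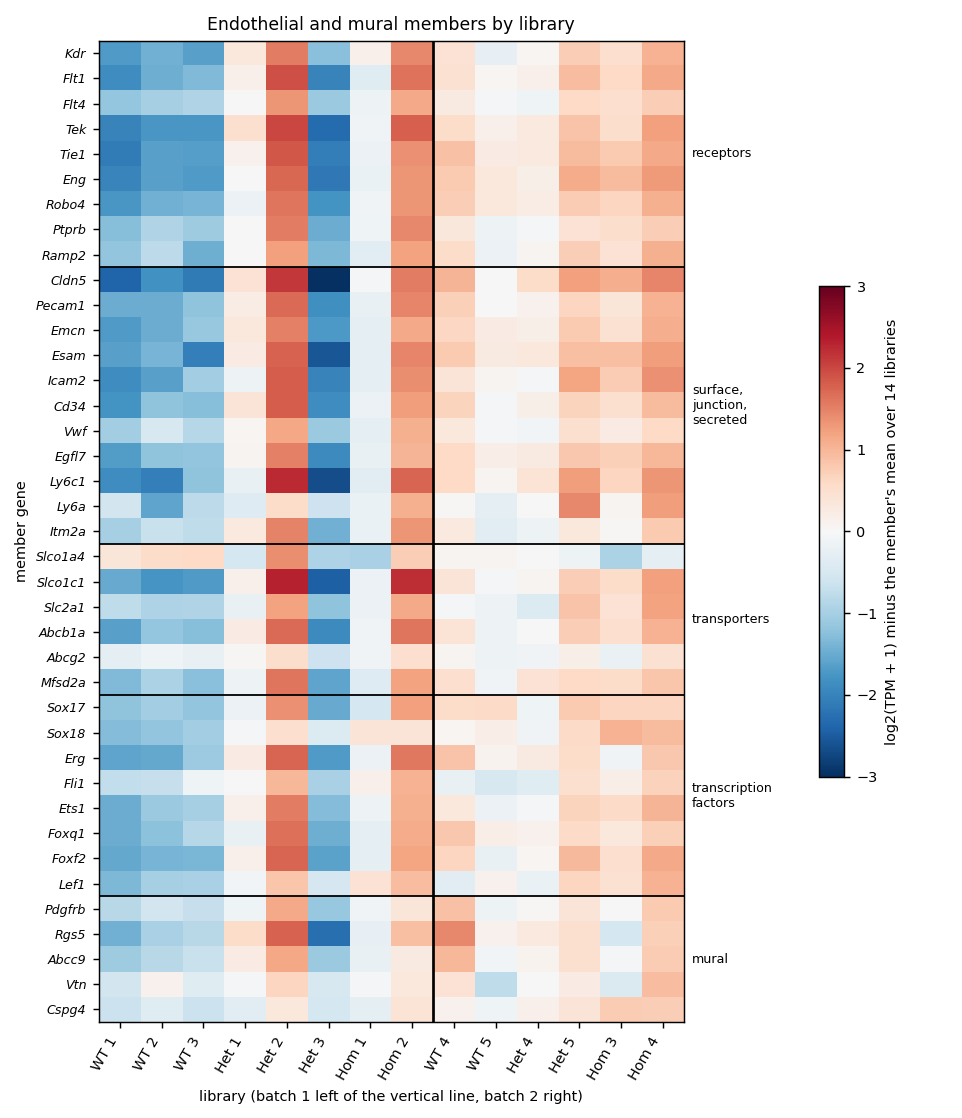
Level of each of the 39 members in each library, as log2(TPM + 1) minus the mean of that member over the 14 libraries (red, above its mean; blue, below), with members grouped by role and libraries by batch and genotype label. The columns of WT 1 to 3 and Het 3 are low and those of Het 2 and Hom 2 high for almost every endothelial member, while Slco1a4 is above its mean in WT 1 to 3.

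The receptor members had low levels in WT 1 to 3 and Het 3 and high levels in Het 2 and Hom 2. Kdr, the main receptor for vascular endothelial growth factor, had 5.46, 6.74, 5.73, 27.43 and 16.61 TPM in WT 1 to 5. Its levels were 25.22, 59.79, 7.75, 20.85 and 33.91 TPM in Het 1 to 5, and 22.17, 55.88, 28.52 and 42.27 TPM in Hom 1 to 4. Both Hom libraries were above every WT library within each batch, and all 3 Het libraries were above the WT libraries in batch 1 alone. Ramp2, the receptor partner for adrenomedullin and the receptor member with the highest mean level, had 13.01, 17.24, 10.53, 45.17 and 26.81 TPM in WT 1 to 5. It had 30.23, 73.26, 11.49, 32.56 and 51.98 TPM in Het 1 to 5, and 23.9, 72.52, 41.4 and 65.34 TPM in Hom 1 to 4. Hom 3 was below WT 4 for Ramp2, so the groups overlapped in batch 2. The angiopoietin receptor Tek ran from 0.48 TPM in Het 3 to 28.27 TPM in Het 2, its relative Tie1 from 1.49 TPM in WT 1 to 37.68 TPM in Het 2, and Flt1, which binds the same growth factor as Kdr, from 0.79 to 26.46 TPM. Eng, a co-receptor for the transforming growth factor family, ran from 2.61 to 51.41 TPM. The other members of the receptor group, Flt4, Robo4 and Ptprb, each had their highest level in Het 2 too, with 6.17, 14.21 and 14.34 TPM.

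Among surface, junction and secreted members, Cldn5, the main claudin of brain endothelial tight junctions, had 9.14, 14.03, 11.27, 107.55 and 52.11 TPM in WT 1 to 5. It had 70.52, 229.29, 5.39, 76.95 and 123.85 TPM in Het 1 to 5, and 50.43, 152.1, 111.53 and 146.83 TPM in Hom 1 to 4. The highest WT value was thus above the lowest Hom value, but not within a batch. Pecam1, an adhesion molecule of endothelial junctions, had 3.58, 3.62, 4.57, 20.3 and 11.69 TPM in WT 1 to 5. It had 14.11, 41.03, 2.6, 13 and 19.19 TPM in Het 1 to 5, and 10.06, 34.33, 15.56 and 25.44 TPM in Hom 1 to 4. WT 4 was above Hom 3 for Pecam1, so groups overlapped in batch 2. Itm2a was higher than most of the group in every library, from 21.24 TPM in Het 3 to 166.4 TPM in Het 2, and so was the secreted factor Egfl7, from 10.34 to 121.15 TPM. Vwf, a secreted clotting factor of endothelial cells, ran only from 4.85 to 27.05 TPM. Ly6a was the lowest of the group on average, and of the surface members it alone had its highest level in Het 5 (7.08 TPM).

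Of the 6 barrier transporters, 4 followed the rest of the list and 2 moved little or otherwise. Slc2a1, the glucose transporter of the blood-brain barrier, had 16.77, 14.8, 15.09, 28.19 and 25.96 TPM in WT 1 to 5. It had 24.86, 68.83, 12.11, 21.77 and 53.71 TPM in Het 1 to 5, and 25.54, 65.8, 39.84 and 68.3 TPM in Hom 1 to 4. Each Hom library was above each WT library of its batch. Slco1c1, a thyroid hormone transporter, ran from 2.2 TPM in Het 3 to 86 TPM in Het 2, the drug pump Abcb1a from 0.51 to 17.33 TPM, and the lipid transporter Mfsd2a from 6.01 to 63.48 TPM, all in the same order of libraries at the extremes. Abcg2, another drug pump, was between 17.79 TPM (Het 3) and 40.36 TPM (Het 2), a much narrower range. Slco1a4, an organic anion transporter, had 7.74, 8.92, 9.28, 6.26 and 6.22 TPM in WT 1 to 5, 3.76, 16.8, 2.61, 5.84 and 5.12 TPM in Het 1 to 5, and 2.47, 10.28, 2.53 and 4.65 TPM in Hom 1 to 4. It kept its high values in Het 2 and Hom 2, but was higher in the WT libraries of batch 1 than in those of batch 2, at a ratio of means of 0.7217. Slco1a4 was singled out after its values were seen.

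The transcription factors held the members that were called between genotypes. Sox18, a factor of vessel and lymph vessel development, had 5.29, 5.82, 6.58, 15.22 and 16.99 TPM in WT 1 to 5. It had 14.06, 20.94, 10.79, 13.48 and 22.27 TPM in Het 1 to 5, and 19.3, 19.26, 31.22 and 28.97 TPM in Hom 1 to 4. Every Hom library, in either batch, was above every WT library. Lef1, the nuclear partner of beta-catenin in Wnt signalling, was low, with 0.32, 0.68, 0.71, 1.65 and 2.7 TPM in WT 1 to 5. It had 2.16, 4.95, 1.36, 1.94 and 4.28 TPM in Het 1 to 5, and 3.54, 5.43, 3.61 and 5.89 TPM in Hom 1 to 4, again with every Hom library above every WT library. Sox18 was the endothelial member with the smallest ratio of Het 2 to Het 3. The Ets family members Erg, Fli1 and Ets1 ran from 0.49 to 15.17 TPM, from 1.69 to 9.83 TPM and from 3.35 to 34.29 TPM. Sox17, a relative of Sox18, ran from 0.09 TPM in Het 3 to 7.11 TPM in Het 2, and the barrier factors Foxq1 and Foxf2 reached 10.78 and 17.37 TPM in Het 2.

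**Figure D3:**
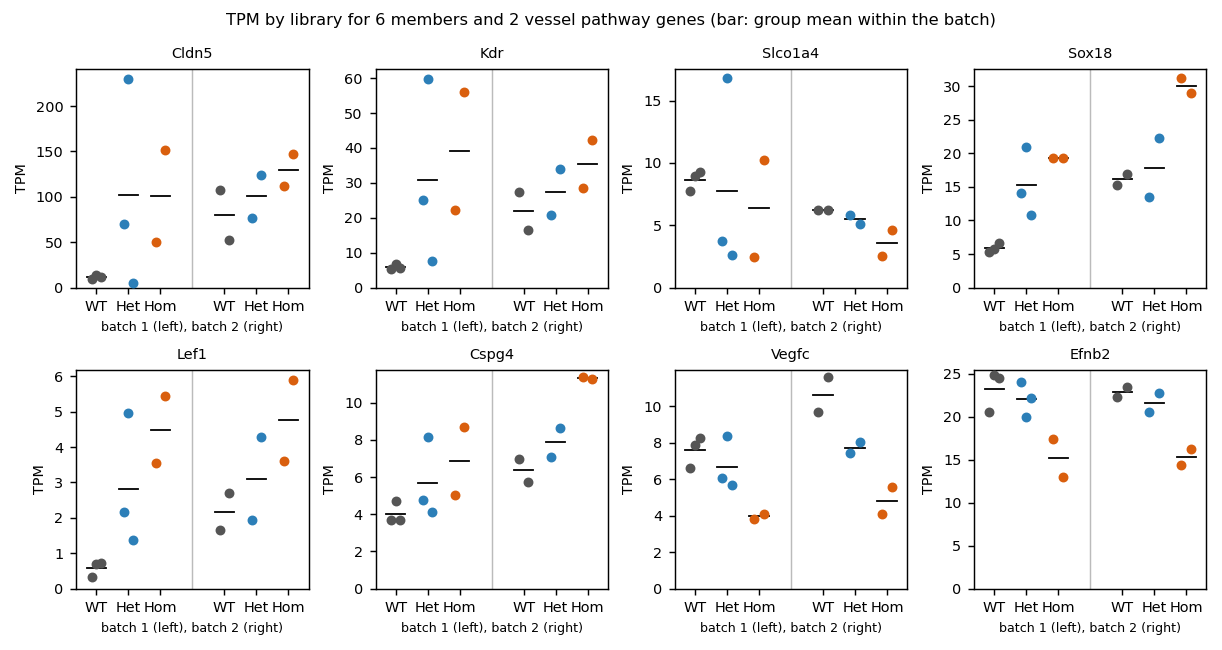
TPM in each library for the members Cldn5, Kdr, Slco1a4, Sox18, Lef1 and Cspg4 and for Vegfc and Efnb2 of the vessel pathway lists, by genotype label and batch, with a bar at the mean of each group within its batch. Sox18 and Lef1 have every Hom point above every WT point, Vegfc and Efnb2 have every Hom point below every WT point, and Cldn5 spans 5.39 to 229.29 TPM among the Het libraries of batch 1.

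The sum of the 5 mural members was highest in Het 2 and lowest in Het 3, as the endothelial sum was, with a narrower range. Not every mural member followed: 3 were highest in Het 2, but Vtn was highest in Hom 4 and Cspg4 in Hom 3. The mural members summed to 47.61, 73.67, 58.41, 158.4 and 68.22 TPM in WT 1 to 5. The sums were 95.69, 191.7, 44.82, 94.04 and 112.2 TPM in Het 1 to 5, and 79.89, 125.8, 71.73 and 159.7 TPM in Hom 1 to 4. Het 2 was 4.278 times Het 3, against 10.71 for the endothelial sum. The mural sum was 27.8% to 34.8% of the endothelial sum in WT 1 to 3 and Het 3, and 10.2% to 23% in the other libraries. Vtn alone held 31.53 TPM of the mural sum in WT 1 and 33.2 TPM in Het 3. Its ratio of Het 2 to Het 3 was 2.246, against 19.88 for Rgs5 and 10.23 for Abcc9. WT 4 was high for mural genes, with 67.83 TPM of Rgs5, a regulator of G protein signalling in pericytes, against 8.33 to 27.06 TPM in the other WT libraries. Pdgfrb, the receptor through which pericytes are recruited, had 3.32, 4.24, 3.76, 13.22 and 5.9 TPM in WT 1 to 5, 6.09, 15.96, 2.48, 6.9 and 9.12 TPM in Het 1 to 5, and 6.14, 8.92, 6.79 and 12.21 TPM in Hom 1 to 4. Groups overlapped for Pdgfrb once both batches were considered, and in batch 2 by themselves. Vtn, a secreted adhesion protein with the highest mean of the group, lay between 27.06 TPM (WT 5) and 90.26 TPM (Hom 4) and was not separated by genotype in either batch. Cspg4, the proteoglycan NG2, had 3.69, 4.71, 3.69, 7 and 5.74 TPM in WT 1 to 5, 4.78, 8.17, 4.12, 7.11 and 8.65 TPM in Het 1 to 5, and 5.04, 8.69, 11.37 and 11.26 TPM in Hom 1 to 4. It was the mural member with every Hom library above every WT library of its batch, and oligodendrocyte precursors also make it. Abcc9, a potassium channel subunit of pericytes, ran from 0.7 to 7.16 TPM.

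Libraries labelled Hom were set against those labelled WT, to ask whether loss of both Chd7 copies in the granule lineage went along with a different level of vessel transcripts. All but 1 of the 39 members had a positive log2 change, Slco1a4 being the exception, and the median was 1.199, against 0.024 over all genes tested. At a limma adjusted p under 0.05, 2 members were called higher, Sox18 and Lef1, and 0 were called lower, where 1.27% and 1.41% of all genes were called. At an unadjusted p under 0.05, 25 members were higher (8.51% of all genes) and 0 were lower (6.42% of all genes). The exact Kruskal-Wallis test over the 3 genotypes gave an unadjusted p under 0.01 for 3 members, Sox18 (p = 0.004178), Lef1 (p = 0.004178) and Cspg4 (p = 0.007572), and for 803 of the 17325 genes. In batch 1, 37 of the 39 members had every Hom library above every WT library (17.6% of all genes), and Slco1a4 and Vtn did not. In batch 2 the count was 21 (27.0% of all genes), and the same 21 were separated in both batches (5.44% of all genes). The members rise and fall together across libraries, so these counts are not 39 separate observations.

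For single members the change was set against its error. For Sox18 the Hom change was 1.27 as log2 (SE 0.23, limma adjusted p = 0.008843), with means of 24.69 ± 6.311 TPM (SD, n = 4) and 9.98 ± 5.645 TPM (SD, n = 5). Lef1 was higher by 1.38 (SE 0.31, limma adjusted p = 0.02916), with means of 4.617 ± 1.219 TPM and 1.212 ± 0.9665 TPM. Both of these calls were made with 1 pooled estimate for 2 batches. Neither member passed the threshold in batch 2 alone, where 0 of the 17325 genes were called higher. For Lef1 the adjusted p rose to between 0.05619 and 0.1025 when 1 library was left out, in 7 cases of 14, namely WT 1, WT 2, WT 3, WT 4, Hom 1, Hom 2 or Hom 4. The change of Cspg4 was 0.68 (SE 0.18, adjusted p = 0.07272), that of Kdr 1.63 (SE 0.51, adjusted p = 0.1302) and that of Slc2a1 1.17 (SE 0.42, adjusted p = 0.2059). Cldn5 had the largest estimate, 1.92, with an SE of 0.81 (adjusted p = 0.2803). Ramp2 had a change of 1.13 (SE 0.46, adjusted p = 0.2664) and Pecam1 one of 1.28 (SE 0.60, adjusted p = 0.3412). For Pdgfrb (0.48, SE 0.39, adjusted p = 0.6221) and Vtn (0.40, SE 0.31, adjusted p = 0.5954) the estimate was close to its error. Slco1a4 had a change of -0.67 (SE 0.42, adjusted p = 0.498).

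By role, the 9 receptors had a median log2 change of 1.48 and all 9 had an unadjusted p under 0.05. The 11 surface, junction and secreted members had a median of 1.28, with 6 at an unadjusted p under 0.05. The 6 transporters had a median of 1.14 (4 at an unadjusted p under 0.05) and the 8 transcription factors one of 1.19 (5). The 5 mural members had a median of 0.48, with 1 at an unadjusted p under 0.05, so the mural estimates were the smaller ones.

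The 2 batches gave different sizes. Within batch 1 the median log2 change of the 39 members in Hom was 1.74 and within batch 2 it was 0.53, and the endothelial sum in Hom was 4.193 times that in WT in batch 1 and 1.485 times in batch 2. For the mural sum the ratios were 1.717 and 1.021. Cldn5 changed by 2.85 in batch 1 and 0.76 in batch 2, Sox18 by 1.56 and 0.86, and Lef1 by 1.79 and 0.85. Rgs5 had opposite signs, 1.42 and -0.69. The Hom change was smaller in batch 2 than in batch 1 for 37 of 39 members (8537 of the 17325 genes tested), with a median difference of -1.29. As an interaction term none of the 39 differed at a limma adjusted p under 0.05 (0.0115% of all genes did). None had an unadjusted p under 0.05 for this term, against 2980 of the 17325 genes. The Kruskal-Wallis test has no form for this term. Without Hom 2 the median Hom change fell from 1.199 to 0.82. The members higher at an unadjusted p under 0.05 fell from 25 to 4, where 7.75% of all genes were. That count also rests on the spread pooled over the 3 genotypes. It rose to 31 without Het 2 (1592 of the 17325 genes) and to 30 without Het 3 (1517 genes), with medians of 1.17 and 1.22.

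**Figure D4:**
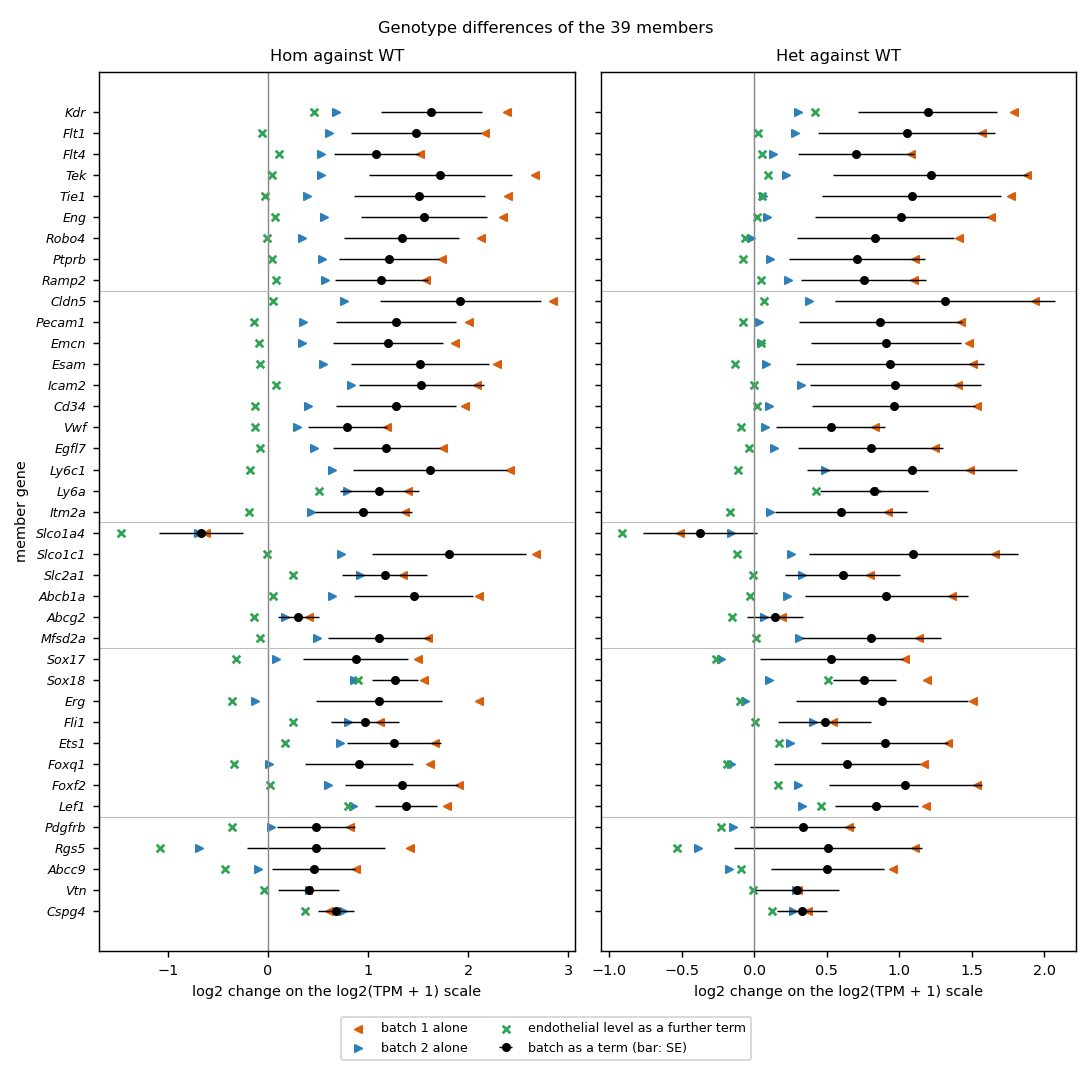
Log2 change on the log2(TPM + 1) scale for each of the 39 members in Hom against WT (left) and Het against WT (right), fitted with batch as a term (black, bar for the SE), in each batch alone (triangles) and with the mean log2 level of the endothelial members as a further term (crosses). Batch 1 estimates lie to the right of batch 2 estimates for most members, and the crosses lie near 0 for most members, with Slco1a4 (-1.47) and Rgs5 (-1.08) farthest below and Sox18 (0.90) and Lef1 (0.80) farthest above in Hom. For endothelial members, crosses scattered around 0 follow from the form of that fit.

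Since the members moved together, each gene was also fitted with the mean log2 level of the endothelial members, the gene itself left out, as a further term. The median Hom change of the 39 members was then -0.033, with 17 above 0. The term is the average of the endothelial members themselves. A median near 0 and smaller errors for these members thus follow from the form of the fit and are no finding. The SE of Cldn5 fell from 0.81 to 0.24 and its change from 1.92 to 0.05. Sox18 kept a change of 0.90 (SE 0.20, limma adjusted p = 0.04116, against 0.00276 to 0.2134 over its 27 alternatives) and Lef1 one of 0.80 (SE 0.22, adjusted p = 0.09436, against 0.01319 to 0.335 over its 26). Slco1a4 was lower in libraries labelled Hom in this fit, by -1.47 (SE 0.33, adjusted p = 0.03964), and was called in no other of its 27 alternatives, where adjusted p reached 0.7585. The mural member Rgs5 had a change of -1.08 in this fit (SE 0.28, adjusted p = 0.07047) and 0.48 without the term. So 1 member was called lower and 1 higher, where 1.23% and 0.935% of all genes were. The level used as the term itself differed between genotypes, so this fit describes how single members depart from the common level and does not separate genotype from vessel content.

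Libraries labelled Het were compared with those labelled WT in the same way. Of the 39 members, 38 had a positive change, with a median of 0.83 against 0.007 over all genes. None was called at a limma adjusted p under 0.05 in either direction, where 0% of all genes were called lower and 0.00577% were called higher. At an unadjusted p under 0.05, 4 members were higher (3.2% of all genes), namely Kdr, Ly6a, Sox18 and Lef1, and 0 lower (499 of the 17325 genes). The change was 0.76 for Sox18 (SE 0.22, adjusted p = 0.5244), 0.84 for Lef1 (SE 0.29, adjusted p = 0.6153) and 1.196 for Kdr (SE 0.48, adjusted p = 0.7407). For Cldn5 it was 1.31 (SE 0.76, adjusted p = 0.8423) and for Pdgfrb 0.33 (SE 0.36, adjusted p = 0.9199). The Het estimate turned on Het 2 and Het 3, which had the highest and the lowest vessel sums. Without Het 3 the median was 1.19 and 31 members were higher at an unadjusted p under 0.05 (3.71% of all genes). Without Het 2 the median was 0.38 and 2 were, near the 2.9% of all genes. In batch 1, only Kdr, Lef1 and Sox18 had every Het library above every WT library (8.73% of all genes were separated this way), and in batch 2 only Cspg4 did (16.2% of all genes). The median was 1.19 within batch 1 and 0.13 within batch 2. As an interaction term 0 members differed between batches at a limma adjusted p under 0.05 (0.00577% of all genes). Unadjusted, 1 of the 39, Sox18, passed that threshold (difference -1.09, SE 0.35, limma adjusted p = 0.4858), against 1611 of the 17325 genes. With the endothelial level as a term the median Het change was -0.007, a value near 0 that the form of that fit brings about.

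Hom and Het share the WT libraries, so their changes are not independent. Compared directly, Hom against Het gave a median log2 change of 0.38 over the members. None was called, where 0.277% of all genes were called lower and 0.15% higher at a limma adjusted p under 0.05, and 1, Sox18, was higher at an unadjusted p under 0.05 (0.51, SE 0.23, limma adjusted p = 0.7884). The median was 0.001 without Hom 2 and 0.75 without Het 2.

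Of the vessel genes outside the members, 52 genes were listed by role and 47 passed the filter. In libraries labelled Hom, 2 of these were called lower and 0 called higher, where 1.41% and 1.27% of all genes were. At an unadjusted p under 0.05, 4 were lower, a share near the 6.42% of all genes, and 9 were higher (8.51% of all genes), with a median log2 change of 0.37. Both called genes encode ligands. Vegfc, a growth factor for lymphatic and venous endothelium, had 6.61, 7.89, 8.24, 9.68 and 11.59 TPM in WT 1 to 5, 6.07, 8.36, 5.66, 7.44 and 8.03 TPM in Het 1 to 5, and 3.8, 4.11, 4.07 and 5.56 TPM in Hom 1 to 4. Every Hom library was below every other library, with a change of -0.88 (SE 0.13, limma adjusted p = 0.002717). Efnb2, a membrane ephrin of arterial endothelium that neural cells also make, had 20.5, 24.81, 24.49, 22.24 and 23.46 TPM in WT 1 to 5, 24.08, 19.94, 22.12, 20.52 and 22.77 TPM in Het 1 to 5, and 17.45, 13.01, 14.39 and 16.19 TPM in Hom 1 to 4. Its change was -0.57 (SE 0.097, limma adjusted p = 0.00571), and it was also lower in Hom than in Het by -0.50 (adjusted p = 0.0454), a call that was lost in each of the 14 fits that left out 1 library. For both genes the ratio of Het 2 to Het 3 was smaller than for any of the members.

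By list, 15 of 18 further endothelial genes were tested, with 1 called lower (Efnb2), 0 called higher and a median Hom change of 0.61. They include Cdh5, the cadherin of endothelial junctions, which ran from 2.47 TPM in Het 3 to 46.16 TPM in Het 2 as the members did. All 11 vascular ligands were tested, with 1 called lower (Vegfc), 0 called higher and a median of 0.23. The 9 Wnt co-receptors and targets had 0 called and a median of 0.11, and their highest member, the Wnt feedback gene Nkd1, had a change of 0.04 (SE 0.089, adjusted p = 0.8771). Of 14 further mural and vessel wall genes, 12 were tested and 0 called, with a median of 0.40. The highest of these, the basement membrane collagen Col4a1, had a change of 0.88 (SE 0.43, adjusted p = 0.3691) and ran from 22.02 TPM in WT 1 to 129.57 TPM in Het 2. In libraries labelled Het, 0 of the 47 were called and 0 had an unadjusted p under 0.05.

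Markers of other cells also differed between the libraries, some against the vessel genes. The 9 astroglia genes summed to 606.8 to 996.1 TPM in WT of batch 1 and to 279.8 to 614.5 TPM in WT of batch 2, to 407 to 647.5 TPM in Het and to 241.7 to 502.5 TPM in Hom. In Hom, 8 of the 9 had a change below 0 (0 called, 5 at an unadjusted p under 0.05, where 6.42% of all genes were lower), while 9618 of the 17325 genes had a change above 0. The batches differed: the Hom sum was 0.4742 times that of WT in batch 1 and 0.8323 times in batch 2. At an unadjusted p under 0.05, 9 astroglia genes were lower in batch 1 alone and 0 in batch 2 alone, against 1244 and 1359 of the 17325 genes. No astroglia gene was at 0 TPM in any library. The list for Purkinje cells and inhibitory interneurons (11 genes, 9 tested, 0 called in Hom) summed to 125.7 to 178.6 TPM in WT, 91.8 to 127.9 TPM in Het and 100.3 to 175.1 TPM in Hom, and its genes did not move as one. The Purkinje cell gene Pcp2 was at 18.53 to 30.62 TPM in WT 1 to 3 and 15.1 TPM in Het 3, but at 0.26 TPM in Het 2 and 0.54 TPM in Hom 2. The interneuron factor Pax2 was at 14.71 TPM in Het 3 and 30.42 TPM in Het 2. Pcp2 was listed at 0 in Het 5 and Skor2 in 7 libraries. Red blood cell genes (7 genes, 5 tested) summed to 296.3 to 715 TPM in WT, 141 to 364.5 TPM in Het and 188.1 to 350.9 TPM in Hom. All 5 tested had a change below 0 in Hom (0 called, 4 at an unadjusted p under 0.05, where 6.42% of all genes were lower). In Het likewise all 5 had a change below 0, with 0 called and 4 at an unadjusted p under 0.05, where 499 of the 17325 genes were lower. Slc4a1, which did not pass the filter, was listed at 0 in Het 3.

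The remaining lists differed between libraries too, in part with a common direction within a list. Meninges and fibroblast genes summed to 159.2 to 422.9 TPM in WT, 262.2 to 476.6 TPM in Het and 206.8 to 544.7 TPM in Hom. Microglia and macrophage genes summed to 257.3 to 591.2, 341.1 to 595.5 and 412.7 to 591 TPM, and oligodendroglia genes to 763 to 1446, 640.5 to 1670 and 607 to 1483 TPM. For these 3 lists 0 genes were called in Hom, and no gene of them was at 0 TPM. All 9 meninges and fibroblast genes had a Hom change above 0 (9618 of the 17325 genes). Within batch 2, all 10 microglia and macrophage genes and 8 of 9 oligodendroglia genes had a Hom change above 0 (9423 of the 17325 genes). Within batch 1 the counts were 3 and 2 (9231 of the 17325 genes). Granule lineage genes, which mark the cells that were isolated, summed to 3378 and 3400 TPM in Hom and 3281 to 3512 TPM in WT of batch 1. In batch 2 both Hom libraries (3311 and 3867 TPM) were below both WT libraries (4595 and 4924 TPM), a ratio of means of 0.754. In that batch 9 of the 10 genes had a change below 0, and 5 of these had an unadjusted p under 0.05. Of the 17325 genes, 1359 were lower at that threshold in batch 2, and 9423 had a change above 0. In batch 1 alone 5 of the 10 genes had a change above 0, and 1 was called higher (82 of the 17325 genes). The difference between batches had an unadjusted p under 0.05 for 6 of the 10, against 2980 of the 17325 genes. With both batches in the fit, 1 of the 10 was called lower, where 1.41% of all genes were. The part of these lists in the differences between genotypes was not tested.

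**Figure D5:**
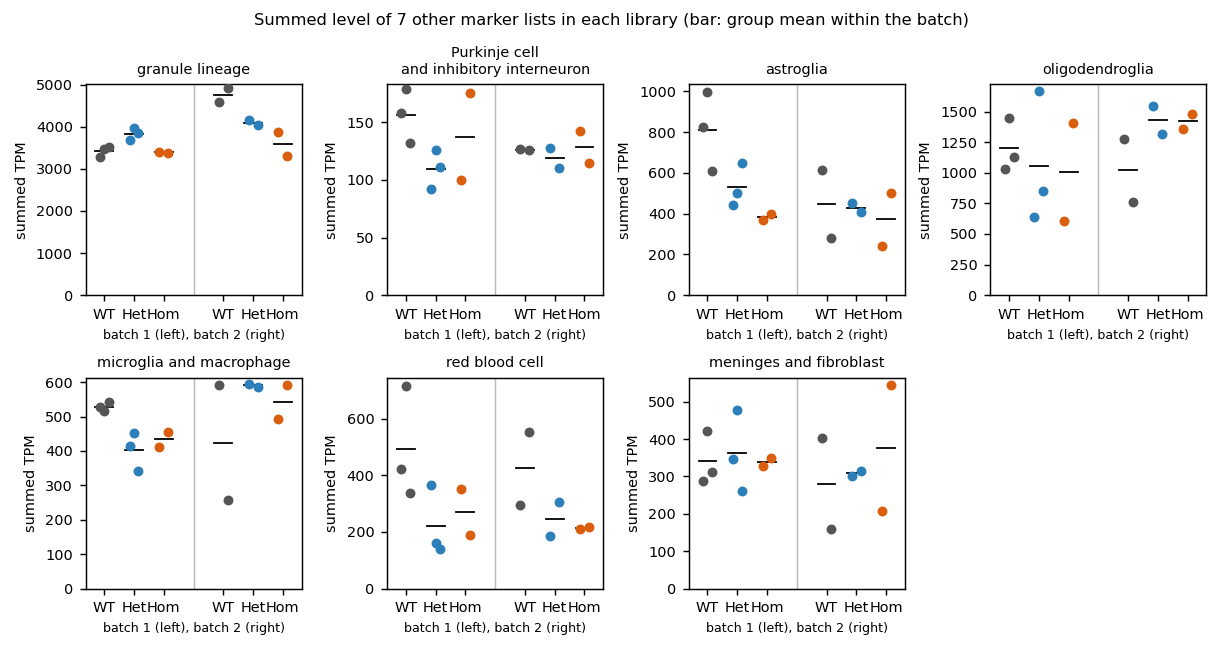
Summed TPM of 7 marker lists of other cells in each library, by genotype label and batch, with a bar at the mean of each group within its batch. Astroglia genes have their highest values in WT 1 (825 TPM) and WT 2 (996.1 TPM), and red blood cell genes have their highest value in WT 2 (715 TPM).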

How the data were processed

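Gene-level TPM values for 14 libraries were deposited by the authors in 1 table. Per the labels and the study's methods, single-end reads were mapped to the mm10 transcriptome with Bowtie 1.0.0 and quantified with RSEM 1.2.15. TPM keeps no depth, so the depth of each library is unknown. The control columns were matched to WT libraries by number. Batches follow the study's methods. Of 41381 genes, 40254 were given a symbol from the GENCODE annotation of GRCm38.

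Values were analysed as log2(TPM + 1), which understates changes of low genes, for the 17325 genes with at least 1 TPM in at least 4 libraries. Linear models with genotype and batch were fitted to all 14 libraries in R 4.3.3 with limma 3.58.1 (lmFit and eBayes, trend on), with two-sided p-values adjusted by the Benjamini-Hochberg method over all genes tested. The threshold was 0.05. The steps were tested on simulated data. Where the study used a Kruskal-Wallis test after ComBat, an exact Kruskal-Wallis test over 252252 arrangements after removal of the batch term was an alternative.

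The members and lists were chosen with earlier results of these data known. Full statistics in Hom against WT are given for Cldn5, Pecam1 and Pdgfrb, and for every member called in a contrast. They are also given for the member with the highest mean TPM of each role group. The 3 members with the smallest unadjusted p in Hom and in Het against WT are included. So is the called or otherwise highest gene of each pathway list. In Het against WT the change, SE and adjusted p are printed for Sox18, Lef1, Kdr, Cldn5 and Pdgfrb only. Other genes with values were named after their values were seen.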

Additional observations from a re-analysis of the deposited data

Results flagged for a closer look

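In 4 of 135 groups of 4 or 5 libraries, 1 library lay far from the rest of its group by Dixon's criterion, which by chance marks about 1 in 20 groups. Slco1a4 had 16.8 TPM in Het 2, with the next library labelled Het at 5.84 TPM. Pdgfrb had 13.22 TPM in WT 4, with the next library labelled WT at 5.9 TPM. The 5 mural members together had 158.4 TPM in WT 4, with the next at 73.67 TPM, and Pdgfrb is part of that sum. Nkd1 had 105.15 TPM in Hom 3, with the next library labelled Hom at 83.29 TPM.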

How the results depend on the processing

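Each count and each change of a named gene was recomputed under other pseudocounts, filters, scalings, batch handling and sample sets. The 2 members called higher in Hom became 1 with a mean TPM of at least 5 (Lef1 was then left out), without a batch term, in batch 1 alone, with a replicate block and with the endothelial level as a term, and 0 in batch 2 alone, where 0 of the 17325 genes were called higher. With 1 library left out the count ranged from 1 to 3, and was 1 without WT 1, WT 2, WT 3, WT 4, Hom 2 or Hom 4. The adjusted p of Sox18 rose above 0.05 without a batch term (0.0522), in batch 2 alone (0.2134) and with the replicate block (0.06439), that of Lef1 in batch 1 alone (0.09605), in batch 2 alone (0.335) and with the endothelial level as a term. Cspg4 was called with quantile normalization (adjusted p = 0.03051) and without Het 2 (0.02927) or Hom 1 (0.04138). The endothelial term gave 1 member lower in Hom, Slco1a4, and 1 vessel pathway gene higher, Pgf (0.87, adjusted p = 0.02753), both named after their values were seen. The 2 vessel pathway genes lower in Hom became 0 in either batch alone and 1 with the replicate block. Of the 17325 genes, 80 were called lower in batch 1 alone and 4 in batch 2 alone. The exact Kruskal-Wallis test covers the 3 genotypes at once and tests no single contrast. At an unadjusted p under 0.01 it gave 3 members, Sox18, Lef1 and Cspg4, and the pathway genes Vegfc and Efnb2, against 803 of the 17325 genes. By the sign of the group means, the same 3 members were counted as higher in Het against WT and in Hom against Het. The same 2 pathway genes were counted as lower in Het. These counts are not tests of 2 genotypes. The cause of the other shifts was not tested.

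With the endothelial level as a term, changes turned sign for Pecam1 (-0.139 in Hom, -0.078 in Het), Pdgfrb (-0.361, -0.23), Vtn (-0.045, -0.007) and Col4a1 (-0.088, -0.001), and for Slc2a1 in Het (-0.009). The term averages the endothelial members, so signs of either kind are built in for Pecam1 and Slc2a1. In batch 2 alone changes turned sign for Pdgfrb in Het (-0.148) and for Nkd1 in Hom (-0.079) and Het (-0.042), and with the replicate block for Nkd1 in Hom (-0.044). Without Het 2 Pdgfrb in Het was -0.012 (range -0.012 to 0.595 with 1 library left out), and without Hom 3 Nkd1 in Hom was -0.013 (range -0.013 to 0.123). Replicate numbers did not pair the libraries: residuals of libraries with the same number correlated at -0.235 to 0.264 across genes, so the block is given only here. Placing Het 3 in batch 2, chosen after seeing the data, kept 2 members called higher in Hom. Depth limits are unknown because TPM keeps no read counts.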
